A study of Mus musculus with 8 samples.

Results

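Endothelial cells line the vessels of the heart, and 32 genes known for marking or shaping these cells were followed in whole left ventricle. They were taken from a list of named genes by symbol, and all 32 were found among 55487 gene identifiers. The tissue came from 8 C57BL/6 mice at 12 weeks of age. The 4 control mice are titled NLC, an abbreviation that the labels do not spell out, and their genotype is given as wild-type. The 4 KO mice are titled CM-ADGRF5-KO and carry the genotype label GPR116-/- with the addition myocyte-specific. GPR116 is another name of ADGRF5, an adhesion G protein-coupled receptor. In each group replicates 1 and 2 were male and replicates 3 and 4 female. The Cre line, the allele and any Cre or floxed allele in the controls are not stated in the labels, so the controls may differ from KO mice in more than the receptor.

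The endothelium of a working ventricle is mostly capillary. Its cells share a core of adhesion molecules at their junctions, receptors for VEGF, angiopoietins and sphingosine-1-phosphate, and ETS and SOX factors that maintain their identity. Arteries, veins, the endocardium and lymphatics add their own genes to this core, such as Notch pathway genes in arteries, and PROX1 and VEGFR3 in lymphatics. Adgrf5 itself is transcribed by endothelial cells, so a whole-tissue count mixes their transcripts with any from cardiomyocytes.

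Libraries held 25.33 to 39.62 M gene reads (M stands for mega), and mitochondrially encoded genes took 17.4% to 21.9% of them. Levels are given as CPM, the reads of a gene per M gene reads, with library sizes scaled by TMM, a normalization for library composition. Differences are log2 fold changes of KO over control from edgeR with sex as a further term, each with its standard error (SE), and a gene counts as called at a Benjamini-Hochberg adjusted p under 0.05 over 14695 genes. Markers of cardiomyocytes (7 of 7 measured) summed to 62850 to 74170 CPM in control hearts and 65930 to 78660 CPM in KO hearts. Control replicate 4 stood apart in atrial, mesothelial and adipocyte markers. The 5 listed markers, of which Bmp10 was at 0 to 0.207 CPM, summed to 6003 CPM there against 381.1 to 811.4 CPM in the other controls and 359.5 to 1436 CPM in KO hearts. The 4 mesothelial markers summed to 25.2 CPM there against 0.776 to 1.63 CPM in the other controls and 0.301 to 3.37 CPM in KO. The 6 adipocyte markers, of which Lep was at 0 in several libraries, summed to 53.5 CPM against 2.06 to 30.6 CPM and 2.33 to 21.2 CPM. Control replicate 3 had the highest sum of 7 interferon-response genes, 168.6 CPM against 84.1 to 106.8 CPM in the other controls and 73.6 to 79.4 CPM in KO hearts.

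Every member was detected in every library, which in whole ventricle does not show which cells made the transcripts. Per kilobase of the principal transcript, control levels ran from 4.00 RPKM (CPM divided by length in kilobases) for Flt4 to 505 RPKM for Fabp4. Fabp4, a fatty acid carrier, stood far above the next members, Egfl7 at 73.8 RPKM, Eng at 69.4 RPKM, Pecam1 at 55.9 RPKM and Cdh5 at 53.2 RPKM. The SOX factors differed, with Sox18 at 28.8 RPKM against 6.58 for Sox7 and 4.71 for Sox17. Adgrf5 stood at 27.3 RPKM, between S1pr1 and Sox18. The order is approximate, because neighbours such as Tie1 and Ramp2, both at 40.4 RPKM, did not differ beyond their spread. Exons of Eng, Egfl7, Nos3, Sox17, Prox1, Dll4 and Notch1 overlap a gene on the opposite strand, and those of Ramp2 and Egfl7 a gene on the same strand, so some reads at these loci may belong to the neighbour or be left out as ambiguous.

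Adgrf5 was measured at 233.3, 257.0, 222.3 and 218.2 CPM in control replicates 1 to 4 and at 223.2, 230.9, 203.0 and 239.8 CPM in KO replicates 1 to 4. The groups overlapped, with a log2 fold change of -0.05 (SE 0.0754, edgeR adjusted p = 0.782). The 95% interval ran from -14.1% to 8.35%. Counts cover the entire gene, so this level does not check the genotype labels, on which every direction below rests.

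No endothelial gene was called between genotypes, against 0.102% of all genes tested. The differences nevertheless lay mostly on the lower side in KO. Of the 32 genes, 23 had a negative and 9 a positive log2 fold change, and the median was -0.17 against -0.01 over all genes. At an unadjusted p under 0.05, 10 members were lower and 1 was higher, where 6.18% of all genes were lower and 5.77% higher. The 4 KO libraries lay below all 4 controls for 5 members and above them for 1, where 3.03% and 3.22% of all genes did so. DESeq2 and limma voom called 0 members as well, and edgeR without a filter on low counts called 6 (Kdr, Aplnr, Icam2, Vwf and Plvap lower, Sox17 higher). That setting raised calls over all genes too, to 621 of 27953 from 15 of 14695 in the main analysis. In whole tissue, fewer endothelial cells and less of these transcripts per cell cannot be told apart. The shift leans on control replicate 3, without which the median was -0.07 with 17 negative and 15 positive members. Without KO replicate 3 the median was -0.10. Leaving out control replicates 3 and 4, the only female controls, reduces the comparison to males, in which the median was -0.05.

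**Figure D1:**
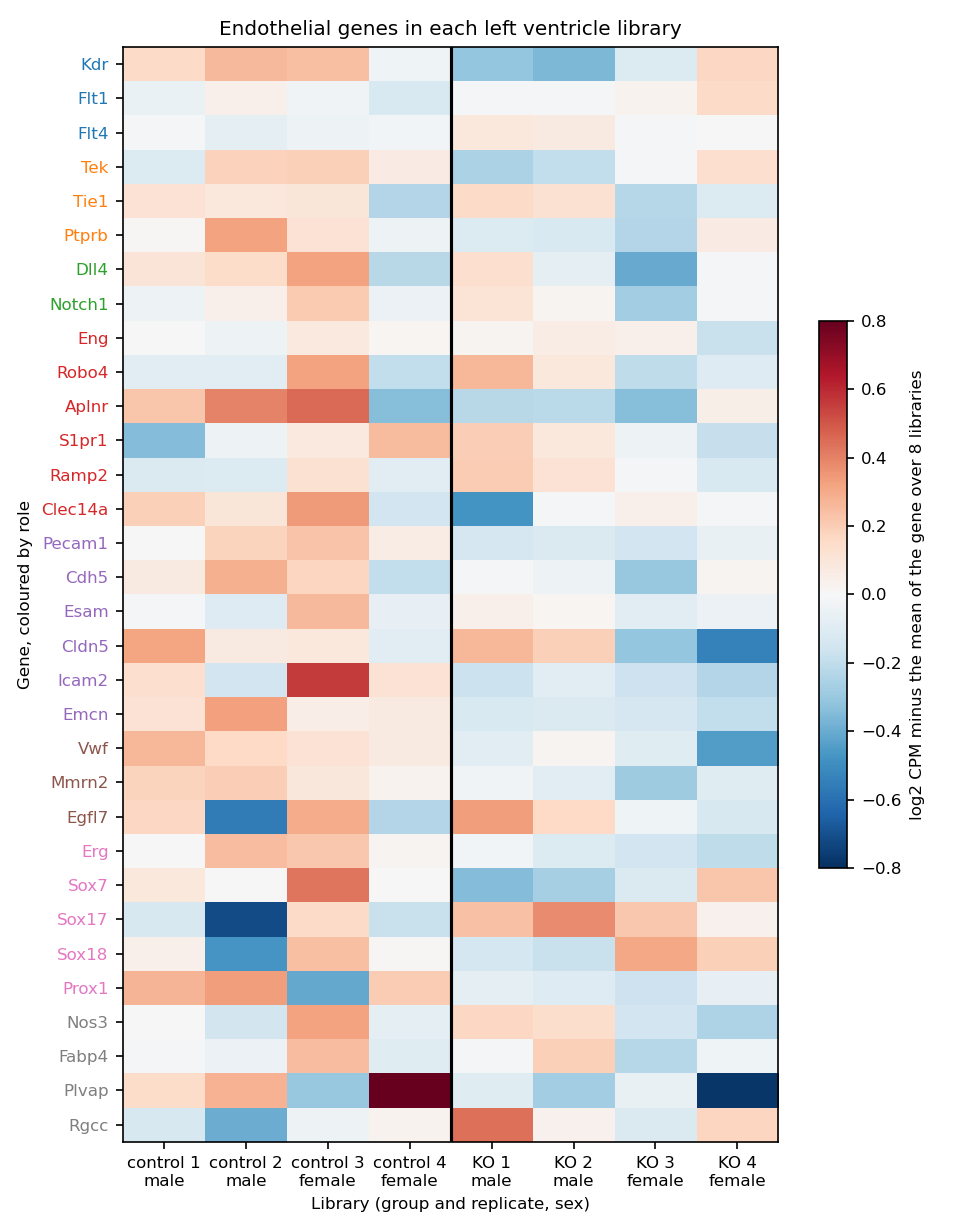
Each row is an endothelial gene, with its name coloured by role, and each column a library. Colour gives log2 CPM minus the gene's mean over the 8 libraries, from blue (low) to red (high), and the black line parts controls from KO. Control replicate 3 is red in most rows and KO replicate 3 blue in most, while Plvap is at its highest, 28.3 CPM, in control replicate 4 and at its lowest, 7.78 CPM, in KO replicate 4.

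The junction and adhesion genes held the member with the smallest p. Emcn encodes endomucin, a surface sialomucin of capillary and venous endothelium. It was measured at 46.9, 54.3, 44.9 and 45.5 CPM in control hearts and at 39.8, 39.9, 39.5 and 37.8 CPM in KO hearts. Every KO library lay below every control, by 18.0% on average (log2 fold change -0.29, SE 0.0695, edgeR adjusted p = 0.212). Pecam1, the adhesion molecule CD31 used to stain vessels, stood at 168.5, 191.4, 198.0 and 176.1 CPM in control hearts and at 154.2, 155.9, 152.1 and 161.9 CPM in KO hearts. These groups did not overlap either (log2 fold change -0.23, SE 0.0710, edgeR adjusted p = 0.302). Icam2, a ligand of leukocyte integrins, was at 26.7, 21.9, 35.9 and 26.4 CPM in control hearts and at 21.6, 22.9, 21.7 and 20.7 CPM in KO hearts. Its groups overlapped, and its highest value came from control replicate 3, the library with the highest interferon-response sum, whose part in the result was not tested. Its log2 fold change was -0.34 (SE 0.126) and -0.20 without that library.

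The other 3 junction genes had smaller differences relative to their spread. Cdh5, which encodes VE-cadherin, the adhesion protein of endothelial adherens junctions, was at 212.4 ± 29.3 CPM in control hearts and 188.8 ± 18.5 CPM in KO hearts (SD, n = 4 each). Cldn5, the tight junction claudin of endothelium, was at 19.3 ± 2.23 and 17.1 ± 4.48 CPM, and Esam, an immunoglobulin-type adhesion molecule, at 78.6 ± 9.26 and 76.2 ± 3.18 CPM. All 6 junction genes thus had a negative log2 fold change, with a median of -0.21, and none was called. In males alone, Esam was at 0.09 and Cldn5 at 0.03. Their summed level was 512.2 to 614.9 CPM in control hearts and 461.9 to 514.1 CPM in KO hearts, an overlap of a single pair of libraries, control replicate 4 and KO replicate 1.

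Among the 3 secreted and matrix proteins, the KO libraries lay below all controls for Vwf and Mmrn2, where 3.03% of all genes did so. None of the 3 was called. Vwf encodes von Willebrand factor, a clotting protein stored by endothelium and richest in larger vessels and veins. Its levels were 87.4, 81.0, 78.8 and 76.5 CPM in control hearts and 68.3, 73.7, 67.8 and 53.2 CPM in KO hearts. KO replicate 4 was the lowest, with a log2 fold change of -0.30 (SE 0.0816, edgeR adjusted p = 0.243). Mmrn2, or multimerin 2, a matrix glycoprotein of vessels that binds CLEC14A, was at 61.8, 62.6, 58.2 and 55.6 CPM in control hearts and 53.7, 51.4, 44.9 and 51.2 CPM in KO hearts. Its difference was -0.24 on the log2 scale (SE 0.0637, edgeR adjusted p = 0.226), the same in males and in females. Egfl7, a secreted protein that hosts miR-126 in an intron, ranged widely, from 71.9 CPM in control replicate 2 to 133.3 CPM in KO replicate 1, and its interval ran from -16.4% to 43.4%.

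The transcription factors did not move together. Erg, the ETS factor that drives Cdh5 and other endothelial genes, was at 29.8, 35.2, 34.5 and 30.1 CPM in control hearts and 29.2, 27.5, 26.7 and 25.8 CPM in KO hearts. The groups did not overlap, though control replicate 1 and KO replicate 1 differed by little (log2 fold change -0.25, SE 0.0815, edgeR adjusted p = 0.336). The 3 SOX factors of the F subgroup, which act partly in each other's place in vessel growth, differed in sign. Sox7 was at 20.9, 19.7, 26.5 and 19.8 CPM in control hearts and 15.5, 16.4, 18.2 and 23.0 CPM in KO hearts, with a log2 fold change of -0.26 (SE 0.112). Sox17, known for its part in arterial identity, was at 15.3, 10.2, 18.6 and 14.8 CPM in control hearts and 19.7, 21.7, 19.4 and 17.1 CPM in KO hearts. It was the only member higher at an unadjusted p under 0.05 (log2 fold change 0.41, SE 0.156, edgeR adjusted p = 0.358), and its groups overlapped through control replicate 3. Without control replicate 2 its log2 fold change was 0.25, and 0 members were then higher at an unadjusted p under 0.05. Sox18 was at 46.7 ± 9.11 CPM in control hearts and 49.4 ± 8.32 CPM in KO hearts.

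Emcn and Erg separated the groups and had a Pearson r of 0.86 over the libraries, to which that separation adds. With the mean of each sex and genotype subtracted, the r of Emcn with Erg was 0.68. Both have a letter match to an ETS core in the stretch before a RefSeq start site, so these stretches are shown, 5′ to 3′ on the gene's strand. The motif searched was CNGGAAG on both strands, in windows of 250 bases before to 50 bases after each start. Capitals mark the match, which reads CAGGAAG on the opposite strand. The Emcn stretch is at chr3:137340828-137341066 (plus strand) and the Erg stretch at chr16:95459349-95459598 (minus strand, 1 of 3 start sites), both in GRCm38.p6 from RefSeq and without the transcribed bases.
Emcn: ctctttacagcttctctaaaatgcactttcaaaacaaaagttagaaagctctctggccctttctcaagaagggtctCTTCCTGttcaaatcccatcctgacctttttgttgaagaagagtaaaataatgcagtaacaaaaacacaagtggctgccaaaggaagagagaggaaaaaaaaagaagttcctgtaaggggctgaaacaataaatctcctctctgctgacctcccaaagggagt
Erg: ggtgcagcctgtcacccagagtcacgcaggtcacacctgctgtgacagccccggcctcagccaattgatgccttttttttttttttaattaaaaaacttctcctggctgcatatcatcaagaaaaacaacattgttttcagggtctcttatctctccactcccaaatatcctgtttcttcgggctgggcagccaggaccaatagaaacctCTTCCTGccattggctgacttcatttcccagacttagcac
Of the 32 members, 16 had an entry in the RefSeq promoter table, with 21 windows. The ETS letters occurred in 57.1% of these windows and in 31.9% of 32851 windows of all genes. A SOX core, ACAAAG, occurred in 19% and 18.7%, and a GATA core, AGATAA, in 9.52% and 11.2%. A match describes the letters and does not show binding.

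The VEGF receptors split. Kdr encodes VEGFR2, the main signalling receptor for VEGF-A, and was at 189.5, 204.1, 202.2 and 166.9 CPM in control hearts and 137.6, 133.2, 158.2 and 191.2 CPM in KO hearts. The male KO libraries were lowest, while KO replicate 4 reached the control range (log2 fold change -0.31, SE 0.112, edgeR adjusted p = 0.350). Flt4 encodes VEGFR3, the receptor of lymphatic growth factors, and was at 25.5, 24.5, 25 and 25.3 CPM in control hearts and 27.3, 27.1, 25.6 and 25.7 CPM in KO hearts. Its groups did not overlap, but the gap was small and the log2 fold change of 0.08 (SE 0.0650) had an interval from -4.50% to 16.7%. Flt1, the decoy-like receptor VEGFR1, was at 116.0 ± 5.26 and 122.6 ± 6.81 CPM.

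Of the angiopoietin receptor system, all 3 members had a negative log2 fold change, none at an unadjusted p under 0.05, and Tie1 was at 0.05 without control replicate 3. Tek, the TIE2 receptor for angiopoietins, was at 62.9 ± 5.95 CPM in control hearts and 56.1 ± 6.97 CPM in KO hearts. Ptprb, the phosphatase VE-PTP that dampens TIE2, was at 122.0 ± 14.0 and 106.0 ± 9.13 CPM. Tie1, the co-receptor, was at 165.4 ± 18.2 and 161.9 ± 20.5 CPM, with the 2 lowest values in control replicate 4 and KO replicate 3.

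The remaining surface receptors had a median log2 fold change of -0.01. Aplnr, the apelin receptor, was at 39.5, 44.6, 46.4 and 26.8 CPM in control hearts and 29.1, 29.2, 26.8 and 35.1 CPM in KO hearts. Control replicate 4 was as low as KO replicate 3, so the groups overlapped despite a log2 fold change of -0.39 (SE 0.159, edgeR adjusted p = 0.383), which was -0.25 without control replicate 3. Clec14a, a C-type lectin of sprouting vessels, was at 24.3 ± 3.43 and 20.7 ± 3.17 CPM. Eng, the TGF-β family co-receptor endoglin, was at 237.5 ± 8.32 and 233.4 ± 16.9 CPM. Robo4, a receptor that stabilises vessels, S1pr1, the sphingosine-1-phosphate receptor of endothelium, and Ramp2, a partner of the adrenomedullin receptor, had log2 fold changes of 0.01, 0.02 and 0.09, and none of the 3 was at an unadjusted p under 0.05.

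**Figure D2:**
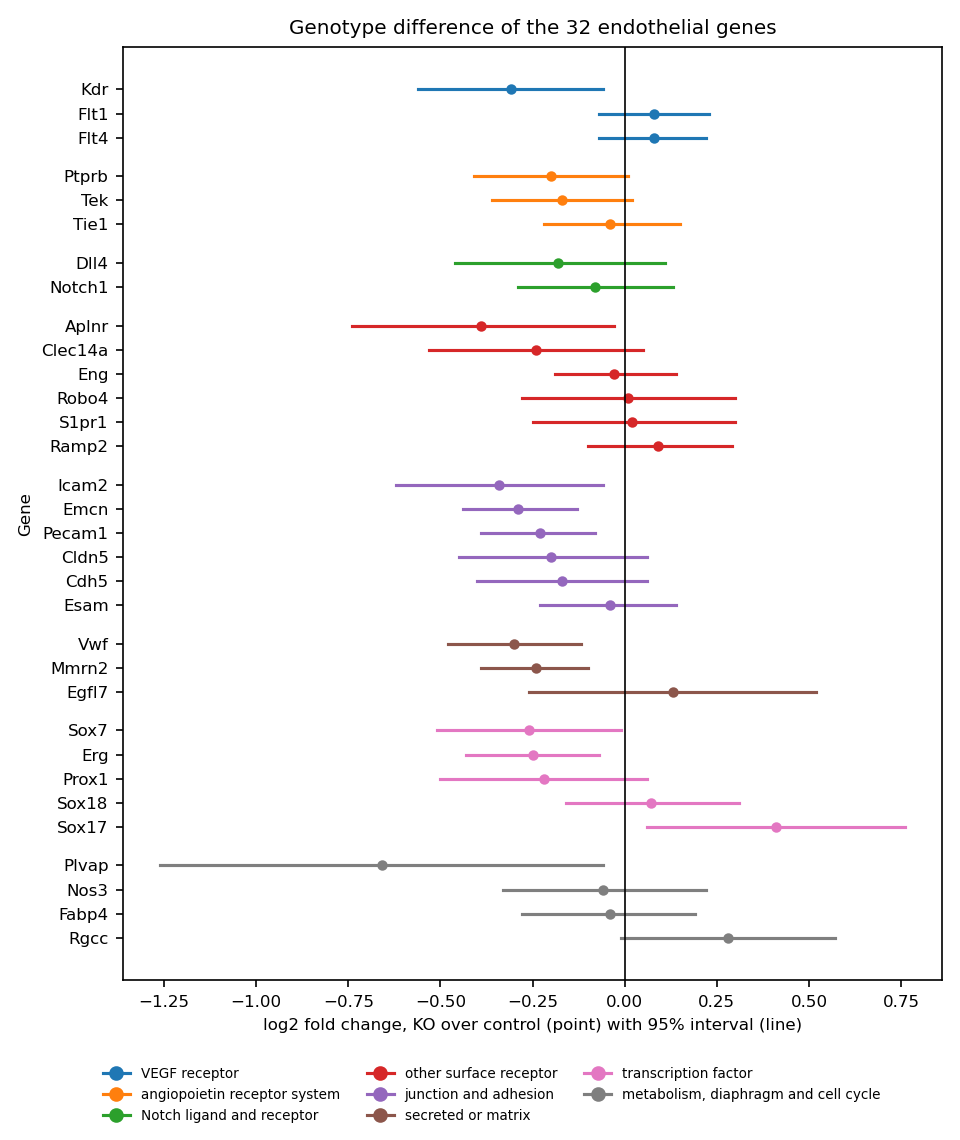
Points are log2 fold changes of KO over control and lines their 95% intervals, for the 32 genes grouped and coloured by role, with the vertical line at no difference. All 6 junction genes lie left of the line, from Icam2 at -0.34 to Esam at -0.04, and Sox17 at 0.41 lies farthest to the right.

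Capillary and large-vessel members were set side by side. The capillary members are Kdr, Aplnr, Fabp4 and Rgcc, and the large-vessel members are Vwf, Plvap, Sox17, Dll4 and Notch1. Both had a median log2 fold change of -0.18. The summed level of the capillary members was 639.1 to 804.4 CPM in control hearts and 591.6 to 698.7 CPM in KO hearts, which overlapped. That of the large-vessel members was 190.8 to 202.3 CPM in control hearts and 156.6 to 186.3 CPM in KO hearts, which did not. That separation came with Vwf, since the other 4 large-vessel genes summed to 109.8 to 123.5 CPM and 95.18 to 118 CPM, which overlapped. Without control replicate 3 the medians were -0.09 for capillary and -0.04 for large-vessel members, and the latter was -0.08 without KO replicate 3.

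Capillary members went in both directions. Fabp4 was at 438.2, 429.6, 526.1 and 414.3 CPM in control hearts and 440.3, 505.0, 378.3 and 433.1 CPM in KO hearts, a full overlap with an interval from -17.6% to 14.1%. It makes up most of the capillary sum, and adipocytes are known to transcribe it too. Rgcc, a cell cycle regulator enriched in cardiac capillaries, was at 28.0, 23.2, 29.8 and 31.2 CPM in control hearts and 41.6, 31.3, 28.3 and 34.5 CPM in KO hearts. Its log2 fold change of 0.28 (SE 0.131, edgeR adjusted p = 0.428) was opposite in sign to those of Kdr and Aplnr, and was 0.14 without KO replicate 1.

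Large-vessel members were no more uniform. Plvap, the protein of the diaphragms of fenestrae and caveolae, was at 14.8, 16.2, 10.8 and 28.3 CPM in control hearts and 12.5, 11.0, 12.8 and 7.78 CPM in KO hearts. Its log2 fold change of -0.66 (SE 0.269, edgeR adjusted p = 0.381) was the largest in size among the members, but it rested on control replicate 4, without which it was -0.27, behind Aplnr at -0.55 and Kdr at -0.41. That library also had the highest atrial, mesothelial and adipocyte marker sums, whose part in this value was not tested. Dll4, the arterial Notch ligand, was at 32.2, 33.2, 37.5 and 25.8 CPM in control hearts and 33.0, 28.6, 22.7 and 29.9 CPM in KO hearts. Notch1, its receptor, was at 47.5, 50.3, 56.6 and 47.4 CPM in control hearts and 52.8, 49.6, 40.3 and 48.7 CPM in KO hearts. Control replicate 3 had the highest value of both and KO replicate 3 the lowest, with log2 fold changes of -0.18 (SE 0.129) and -0.08 (SE 0.0946).

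Of the remaining members, Prox1, the factor that specifies lymphatic endothelium and is also transcribed in cardiomyocytes, was at 52.5, 54.9, 32.7 and 50.1 CPM in control hearts and 41.2, 40.5, 38.8 and 41.6 CPM in KO hearts. Control replicate 3 was the lowest of all 8, and the other 3 controls lay above KO. Prox1 and Flt4, the lymphatic pair, had a Pearson r of -0.30. Nos3, the endothelial nitric oxide synthase, was at 61.5 ± 9.17 CPM in control hearts and 59.4 ± 8.50 CPM in KO hearts.

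Within each sex, 2 libraries of each genotype were compared. The median log2 fold change of the members was -0.05 in males, where 15 of 32 were positive, and -0.17 in females, where 5 were. The difference between the sexes was tested by a sex by genotype term. No member passed it in edgeR, as 0% of all genes did (DESeq2 called 18 genes), and at an unadjusted p under 0.05 there were 6 members, against 7.46% of all genes. These were Kdr, Robo4, S1pr1, Ramp2, Cldn5 and Nos3. S1pr1 had the smallest p, with log2 fold changes of 0.33 in males and -0.28 in females and a difference of 0.61 (SE 0.167, edgeR adjusted p = 0.648). Nos3 went the same way, at 0.22 and -0.34. Kdr went the other way, at -0.54 (SE 0.125) in males and -0.08 (SE 0.125) in females. In males, the library numbers in the labels run through both KO libraries before both controls, so number and genotype cannot be told apart there, whereas in females the numbers interleave.

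**Figure D3:**
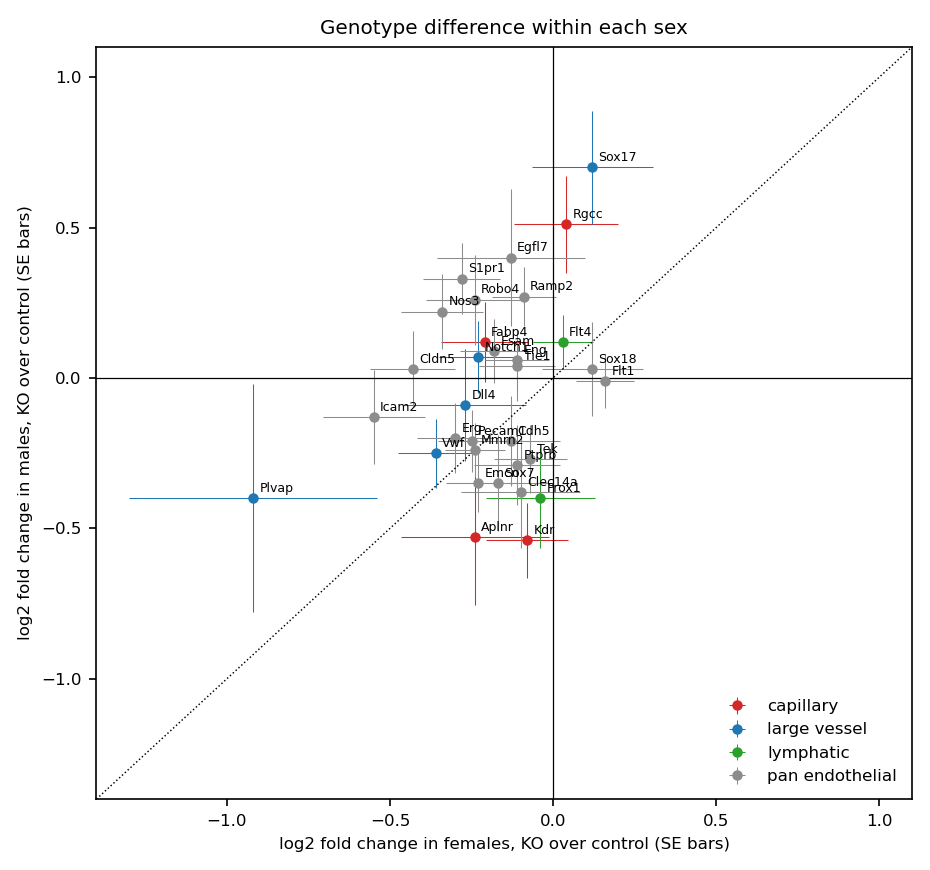
Each point is an endothelial gene, with its log2 fold change of KO over control in females on the x axis and in males on the y axis. Bars are SE, the dotted line marks equal changes, and colour gives the capillary, large-vessel, lymphatic and pan-endothelial members. Most points lie left of 0, and Sox17 at 0.70 and Rgcc at 0.51 are highest in males.

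The sexes themselves differed in no member at the adjusted threshold, which 0.299% of all genes passed. At an unadjusted p under 0.05 there were 4 of 32 members, a share close to the 12.8% of all genes. The count therefore does not set the members apart from other genes. Cldn5 (log2 difference 0.42, SE 0.113) and Tie1 (0.23, SE 0.0835) were higher in males, and Sox18 (-0.37, SE 0.107) and Sox7 (-0.28, SE 0.112) higher in females. All males have lower library numbers in the labels than all females, so number and sex cannot be told apart in these values. Multiply mapped reads also split by sex, at 18.8% to 20.3% in males and 16.8% to 17.9% in females.

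Covariation over the 8 libraries was modest. The median Pearson r of log2 CPM over the 496 pairs of members was 0.21, and 11.5% of pairs exceeded 0.7. Over all pairs of genes tested the median was 0.00, and 4.71% exceeded 0.7. With the mean of each sex and genotype subtracted, the medians were 0.24 and 0.00, and 20.8% and 10.1% of pairs exceeded 0.7. The 2 libraries of each sex and genotype then mirror each other, so these r rest on fewer independent values. Points share libraries, and each value is a description. Without control replicate 3 the median for members was 0.09.

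Members did not form a single block. Average-linkage clustering on r gave 22 genes with a median r of 0.42, which included all junction genes, Kdr, Tek, Tie1, Ptprb, Dll4, Notch1, Vwf, Mmrn2 and Erg. A further 7 genes, Flt4, S1pr1, Ramp2, Egfl7, Sox17, Sox18 and Rgcc, had a median r of 0.56 with each other. Prox1 and Plvap paired at 0.60, and Flt1 stood alone. The groups were made from these same r, so high medians within them are built in. The lowest r was -0.50 within the 22 genes and -0.18 within the 7. The closest pairs were Aplnr with Cdh5 (0.91) and Dll4 with Notch1 (0.90), a ligand and its receptor. The farthest pair was Kdr with Flt4 (-0.90), and Emcn with Sox17 reached -0.86.

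The grouping did not follow vessel type. Capillary members had a median r of 0.07 with each other over 6 pairs, large-vessel members -0.11 over 10 pairs, and capillary with large-vessel members 0.21 over 20 pairs. The mean of the 22-gene block, as log2 CPM centred on each gene's mean, was highest in control replicate 3 at 0.23 and lowest in KO replicate 3 at -0.18. The 7-gene block was lowest in control replicate 2 at -0.34 and highest in KO replicate 1 at 0.19. Its median log2 fold change was 0.33 in males and 0.03 in females, against -0.20 and -0.23 for the 22 genes. Its median principal transcript was also shorter, at 1620 against 3723 bases, and the part of length was not tested. The difference between the capillary and the large-vessel mean ran from -0.25 in control replicate 4 to 0.33 in KO replicate 4, both female, and the genotypes overlapped.

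**Figure D4:**
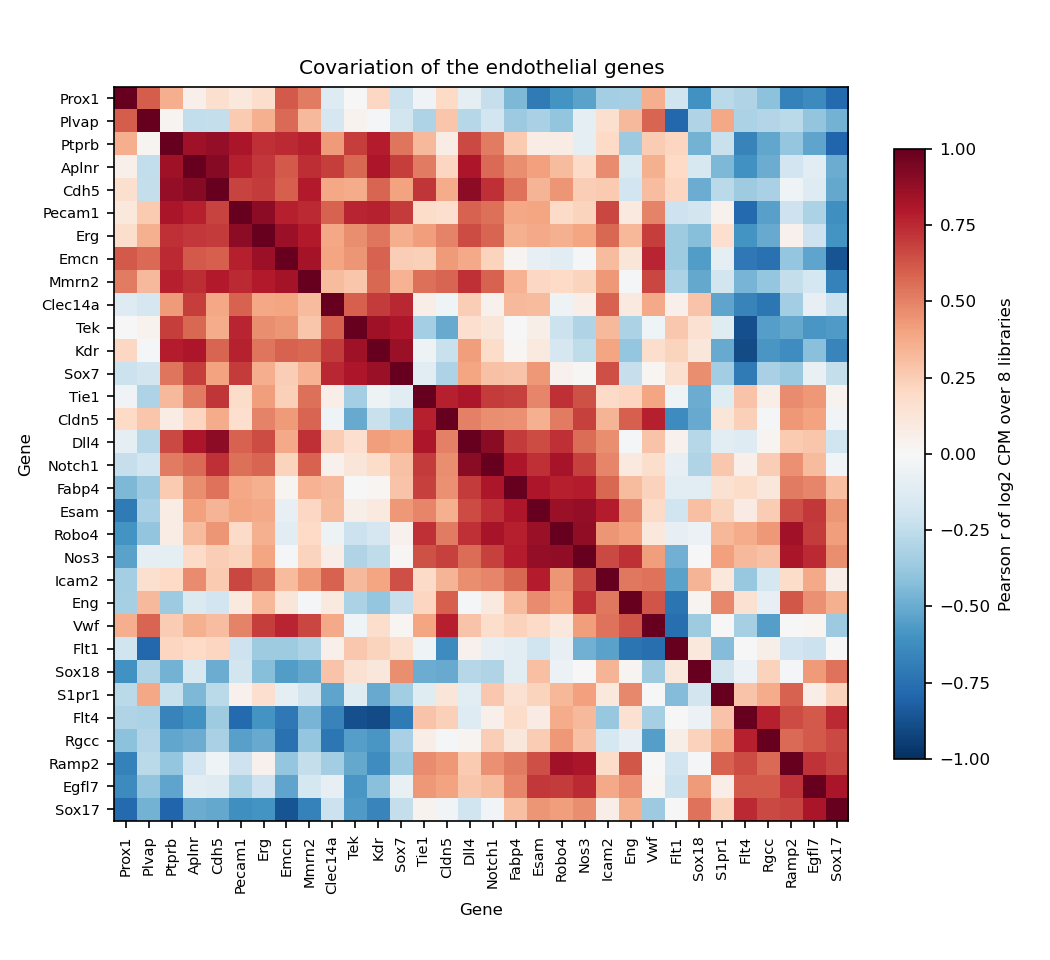
Colour gives Pearson r of log2 CPM over the 8 libraries for each pair of endothelial genes, ordered by average-linkage clustering, from blue (-1) to red (1). The large red area holds the 22-gene block, and the smaller one at the lower right the 7 genes that include Sox17 and Flt4, with blue cells between these genes and Emcn, Kdr and Tek.

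The genes outside the list whose pattern was most like the mean of the members were sought among 11993 genes by Pearson r over the 8 libraries. Inpp5d, Chrnb1, Arhgap25, Meox2, Plxnd1, Ppp1r16b, Vash1, Foxm1, Samhd1 and H2-Q4 came first, with r of 0.96 to 0.94. Meox2 is a homeobox factor of cardiac capillaries, Plxnd1 a semaphorin receptor of vessels and Vash1 an angiogenesis inhibitor made by endothelium. The list is not confined to vascular genes. Inpp5d is better known from blood cells, and H2-Q4 has near-identical copies among which reads could be split. The mean of the members was highest in control replicate 3, the library with the highest interferon-response sum, whose part in this ranking was not tested. Adgrf5 had an r of 0.28 to the same mean and ranked 2802.

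Adgrf5 was related to the members library by library. Its Pearson r was positive for 20 of 32 members, with a median of 0.16 against -0.01 over all genes. The highest was Ptprb at 0.83 (exact permutation p = 0.0143, adjusted p = 0.639, Spearman rho 0.62 with p = 0.115). Cdh5 followed at 0.82 (exact permutation p = 0.0145, adjusted p = 0.639, Spearman rho 0.71 with p = 0.0576). Sox18 was lowest at -0.69 (exact permutation p = 0.0575, adjusted p = 0.693, Spearman rho -0.55 with p = 0.171). Adjustment was over 14694 genes, of which 0 passed at 0.05 and 7.32% had an unadjusted p under 0.05, as did 2 members. These tests are two-sided, and the smallest p that 8 libraries allow is 2.48e-05.

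These relations rest on few libraries. Adgrf5 was farthest from its median in control replicate 2 and KO replicate 3. Without both, over 6 libraries, r fell to 0.20 for Ptprb and 0.31 for Cdh5 and was 0.16 for Sox18, and the median over the members was -0.10. Without KO replicate 3 alone the median was -0.12 with 15 positive members. Within sex and genotype, with group means subtracted, relations went both ways. They reached 0.91 for Ptprb, 0.88 for Flt1 and 0.76 for Cdh5, and -0.85 for Vwf, -0.82 for Eng and -0.81 for Cldn5, with a median of 0.13 against 0.02 over all genes. Each of these groups holds 2 libraries whose deviations mirror each other, so these r rest on fewer independent values than 8 libraries.

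**Figure D5:**
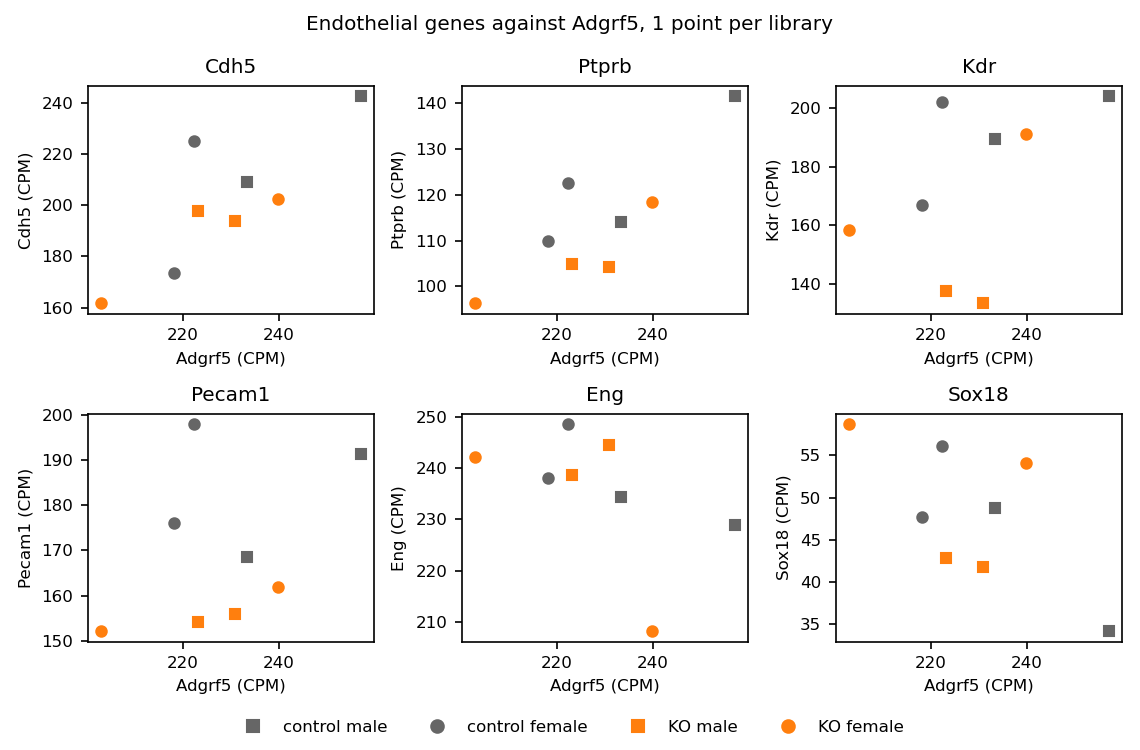
Each panel plots an endothelial gene against Adgrf5, both in CPM, with 1 point per library, squares for males, circles for females, grey for control and orange for KO. In the Cdh5 and Ptprb panels the control at 257.0 CPM of Adgrf5 is highest and the KO at 203.0 CPM lowest, and the 6 libraries between them show little slope.

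Ligands and partners of the member receptors also lay mostly on the lower side in KO. Of 18 such genes 0 were called, 12 had a negative log2 fold change, and the median was -0.18 against -0.01 over all genes, of which 7491 of 14695 were negative. At an unadjusted p under 0.05, 5 were lower and 0 higher, where 6.18% and 5.77% of all genes were. With a library left out in turn, the median ran from -0.28 (without KO replicate 3) to -0.12 (without KO replicate 4). Apln, the ligand of Aplnr, was at 17.0 ± 2.33 CPM in control hearts and 11.8 ± 1.86 CPM in KO hearts (a log2 fold change of -0.53 with an SE of 0.135, edgeR adjusted p = 0.219). Nrp1, a co-receptor of Kdr, was at 103 ± 6.30 and 82.1 ± 9.85 CPM (a log2 fold change of -0.33 with an SE of 0.0884, edgeR adjusted p = 0.242). In both genes the KO libraries lay below all controls. Angpt2, which can antagonise Tek, had a log2 fold change of -0.51 (SE 0.163) and Cav1, the caveolin of endothelial caveolae, of -0.33 (SE 0.110). Ligands of the VEGF family went both ways. The value was 0.01 (SE 0.119) for Vegfa, the ligand of Kdr, 0.15 for Vegfb and 0.13 for Pgf. It was -0.28 (SE 0.101) for Vegfc and -0.39 (SE 0.174) for Vegfd.

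Endothelial genes of other vessel beds differed by bed in their medians, and edgeR called 0 of them, with at most 1 gene per bed in either direction at an unadjusted p under 0.05. All 5 measured venous genes had a negative log2 fold change, with a median of -0.23 and a summed level of 151 to 173.3 CPM in controls against 134.7 to 144.2 CPM in KO hearts. Without control replicate 4 the median was -0.08 and without KO replicate 4 it was -0.06. Nrp2, a VEGF-C and semaphorin co-receptor of veins and lymphatics, was the venous gene with the smallest p, at 60.5 ± 7.93 and 43.8 ± 5.95 CPM (a log2 fold change of -0.47 with an SE of 0.117, edgeR adjusted p = 0.217). The separation of the venous sum came with Nrp2, as the other genes summed to 92.96 to 111.4 CPM and 93.46 to 98.24 CPM, which overlapped. The venous gene Ackr1 was not tested, at 0 to 0.202 CPM. The 3 endocardial genes had a median of -0.40, which was -0.16 without control replicate 4, and -0.19 and -0.18 without control replicate 1 and KO replicate 4. Npr3 had the largest difference among them, -0.55 (SE 0.226), and was highest in control replicate 4 at 30.9 CPM. The 8 further capillary genes had a median of 0.11, with Car4, a carbonic anhydrase of capillaries, at 0.26 (SE 0.0921) and Meox2 at -0.33 (SE 0.116). Medians were -0.03 for 8 arterial genes, -0.02 for 4 lymphatic genes and 0.05 for 8 endothelial transcription factors.

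Supporting cells of the vessel wall gave overlapping sums. Markers of pericytes and smooth muscle (8 of 8 measured) summed to 1249 to 1372 CPM in control hearts and 1214 to 1301 CPM in KO hearts, with a median log2 fold change of -0.11. Fibroblast markers (7 of 7) summed to 1042 to 1139 and 931.8 to 1199 CPM, and macrophage markers (7 of 7) to 194.3 to 252.9 and 190.2 to 305.3 CPM.

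Gene span, from first to last annotated base, was set against the differences because log2 fold changes were lower in longer genes over all genes (Spearman rho -0.34, 14686 genes). Among the members rho was -0.17. By sex, rho over all genes was -0.36 in males and -0.12 in females, and among the members -0.27 and 0.07. In males, library number and genotype cannot be told apart. The 16 members longer than the median member, at 16.4 kb, had a median log2 fold change of -0.19 and the 16 shorter of -0.04. Erg, at 227.4 kb on chromosome 16 (95359169 to 95586593), Vwf, at 139.9 kb on chromosome 6 (125546774 to 125686679), Pecam1, at 96.4 kb on chromosome 11 (106654217 to 106750628), and Emcn, at 91.1 kb on chromosome 3 (137341067 to 137432185), are 4 of the 5 members that separated the groups downward. Mmrn2, the fifth, spans 28.8 kb on chromosome 14 (34375465 to 34404287). The part of span in the differences was not tested.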

How the data were processed

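Stranded mRNA libraries of 8 left ventricles were sequenced, per the labels' protocols. The deposited values are raw counts of reads per Ensembl gene, and STAR, HTSeq and DESeq2 with GRCm38 are listed in the submitters' processing notes. Which versions, annotation release and strandedness option the counting used is not given in the sources used here. Summary entries that name no gene were kept out: 16.8% to 20.3% of reads were multiply mapped, 3.07% to 4.08% outside genes and 1.26% to 1.38% ambiguous.

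Symbols, spans and principal transcripts came from GENCODE M21. Counts were filtered with filterByExpr (14695 genes kept), scaled by TMM and tested by quasi-likelihood in edgeR 4.0.16 under R 4.3.3, adjusted by Benjamini-Hochberg over all genes. Sex was an additive term, and differences within sexes came from a fit with a mean per sex and genotype. CPM use TMM-scaled sizes, and correlations use log2 CPM with a prior count of 2. RPKM divide CPM by principal transcript length. A count of 0 allows up to 0.0793 to 0.122 CPM (3 counts), which covers counting error only. edgeR p-values weigh a difference against the spread between these animals together with counting error. Those of r with Adgrf5 come from exact permutation of the libraries.

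The members and lists were chosen with earlier results of these data known. Named were all members and Adgrf5, called genes and up to 4 genes with the smallest p of other endothelial lists, and 10 genes by likeness. VEGF-family ligands were named in addition. Values by library are given for Adgrf5, members at an unadjusted p under 0.05, and capillary, large-vessel and lymphatic members. Promoters were considered for up to 4 members with the smallest p and an ETS match, and the 2 whose groups did not overlap were printed. Alternatives were DESeq2 1.42.0, limma 3.58.1 voom, other scalings, removal of mitochondrially encoded genes, other filters, no sex term, a replicate block and each library left out. A fit without control replicates 3 and 4 was added after the data were seen. The edgeR fit was tested on simulated counts with known changes. These were larger than the differences of all members but Plvap, so recovery of changes as small as those seen was not tested.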

Additional observations from a re-analysis of the deposited data

Results flagged for a closer look

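In 66 sets of 4 libraries, 1 per gene and genotype for the 32 members and Adgrf5, 4 held a library that stood apart from the other 3 by a gap whose share of the whole range exceeded Dixon's 95% critical value, and chance alone does so in about 1 in 20 sets. Tie1 was at 138.2 CPM in control replicate 4 against 172.3 to 176.6 CPM in the other controls. Eng was at 208.2 CPM in KO replicate 4 against 238.6 to 244.6 CPM in the other KO libraries. Ramp2 was at 53.3 CPM in control replicate 3 against 45.2 to 46.2 CPM in the other controls. Clec14a was at 16.0 CPM in KO replicate 1 against 22.0 to 22.9 CPM in the other KO libraries.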

How the results depend on the processing

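Every member kept its sign under other scalings, DESeq2, limma voom, the stricter filter, no filter, no sex term and the replicate block. The number of genes called between genotypes was 15 in the main analysis, 140 with DESeq2, 621 with no filter, 6 without the sex term, 44 without control replicates 3 and 4, and 0 to 50 with a library left out in turn. For the sex by genotype term, 0 genes became 18 with DESeq2, 243 with no filter and 0 to 8 with a library left out. For sex, 44 became 210 with DESeq2, 742 with no filter, 20 without control replicates 3 and 4, and 16 to 176 with a library left out.

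Leaving out a library in turn, the median log2 fold change ran from -0.20 to -0.07 over the members, from -0.25 to -0.09 over capillary and from -0.26 to -0.04 over large-vessel members, and the median pairwise r from 0.09 to 0.26. Without control replicates 3 and 4 the members' median was -0.05, as in males alone, and Flt1 (-0.01), Tie1 (0.04), Notch1 (0.07), Eng (0.06), Esam (0.09), Cldn5 (0.02), Nos3 (0.22) and Fabp4 (0.12) changed sign. With a library left out in turn, signs also changed in 21 cases and held in 235, and no member at an unadjusted p under 0.05 changed. The ranges were Tie1 -0.09 to 0.05, Notch1 -0.13 to 0.00, Eng -0.05 to 0.03, Robo4 -0.07 to 0.17, S1pr1 -0.10 to 0.12, Esam -0.09 to 0.05, Egfl7 -0.05 to 0.30, Sox18 -0.01 to 0.19, Nos3 -0.15 to 0.08, Fabp4 -0.12 to 0.06. Signs of r with Adgrf5 changed in 17 such cases and held in 239, with ranges of Flt4 -0.39 to 0.19, Tek -0.03 to 0.39, Notch1 -0.22 to 0.66, Robo4 -0.37 to 0.19, Esam -0.53 to 0.13, Cldn5 -0.19 to 0.58, Emcn -0.02 to 0.76, Vwf -0.16 to 0.63, Egfl7 -0.66 to 0.12, Erg -0.08 to 0.63, Nos3 -0.60 to 0.02, Fabp4 -0.25 to 0.49, Plvap -0.40 to 0.11, Rgcc -0.61 to 0.25.

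Same-numbered control and KO libraries deviated from their group means with correlations of 0.25, 0.09, -0.21 and 0.09. Libraries with different numbers gave -0.37 to 0.50. Means were taken per genotype, so sex stays in these deviations, and they cannot show whether the numbers pair the animals. With the replicate block 0 genes were called, and 7 members were lower and 2 higher at an unadjusted p under 0.05. The lowest member value, 7.78 CPM for Plvap in KO replicate 4, was far above the 0.0793 to 0.122 CPM that a count of 0 allows. Counting error and the spread between animals both enter the intervals, and their shares were not separated.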

Other observations

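Endothelial transcription factors outside the 32 genes lay mostly on opposite sides of 0 in males and females. Of Ets1, Fli1, Klf2, Klf4, Gata2, Tal1, Lmo2 and Hhex, 6 had a positive log2 fold change in males and 0 in females, with medians of 0.26 and -0.16. In the sex by genotype term 4 of these 8 genes had an unadjusted p under 0.05, against 7.46% of all genes, and 0 were called. Klf2, a factor induced in endothelium by blood flow, was highest in KO replicate 1 at 151 CPM, against 43.2 to 72.1 CPM in controls and 41.0 CPM in KO replicate 4. Markers of red blood cells (4 of 4 measured) went the same way, with medians of 0.78 in males and -0.39 in females. They summed to 276.8 and 270.7 CPM in the male and 55.8 and 166 CPM in the female KO libraries, against 56 to 220.7 CPM in controls. KO replicate 1 also had the highest macrophage marker sum, 305.3 CPM. Gata2, Tal1 and Lmo2 are known from blood cells too, and the part of blood cells in these values was not tested. S1pr1 and Nos3 are members known as targets of KLF2 and are named here after their values were seen. Their log2 fold changes were 0.33 and 0.22 in males and -0.28 and -0.34 in females. S1pr1 was highest in control replicate 4 at 88.8 CPM, where Klf2 was at 63.3 CPM, and a link to Klf2 was not tested. In males, library number and genotype cannot be told apart.

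Some pairs of members kept a large r after the mean of each sex and genotype was subtracted, and others did not. Pearson r of Dll4 with Notch1 was 0.90 before and 0.97 after, and that of Flt4 with Tek was -0.88 before and -0.84 after. For Kdr with Flt4 it was -0.90 before and -0.34 after. After subtraction the 2 libraries of each sex and genotype mirror each other, so r rests on fewer independent values than 8. Over all pairs of genes, 4.71% exceeded 0.7 before and 10.1% after. These values are descriptions and do not show that a link held.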
